A study of Mus musculus with 11 samples.

Results

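The variable (V), diversity (D) and joining (J) segments of the T cell receptor beta locus were examined in mouse thymocytes of 3 genotypes, wild type (wt), Zmat3-/-, and Puma-/-p21-/-Zmat3-/-, the last called TKO. Members were all genes of the deposited count table whose GENCODE symbol starts with Trbv, Trbd or Trbj. They were 51 of 54418 genes, with 35 Trbv, 2 Trbd and 14 Trbj segments, and all 51 lie on mouse chromosome 6 (GRCm38). GENCODE puts 22 of the Trbv segments in its class of V genes and 13 in its class of V pseudogenes, and 1 of the Trbj segments, Trbj2-6, is a J pseudogene.

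RNA-seq libraries were made from the thymocytes of 4 wt, 4 Zmat3-/- and 3 TKO mice aged 8 to 12 weeks, all kept on a C57BL/6-WEHI background. ZMAT3 is an RNA-binding protein, PUMA (gene Bbc3) is a pro-apoptotic BH3-only protein, p21 (gene Cdkn1a) is a cell cycle inhibitor, and TRP53 can induce all of them. The knockouts were carried in the germline, and the Zmat3 deletion was shared by both mutant groups, so that TKO and Zmat3-/- mice differed in Puma and p21. The labels name no treatment and give no sex. They also do not say whether libraries came from separate litters or runs, so the p-values measure the spread between these mice.

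T cell receptor beta chains are assembled in immature thymocytes. The RAG recombinase joins 1 D segment to 1 J segment and then 1 V segment to the joined DJ, and splicing links the product to a constant region encoded by Trbc1 or Trbc2. The V segment brings the promoter and the leader, and the cut sites are marked by recombination signal sequences beside each segment. Most thymocytes are CD4+CD8+ double-positive cells that have passed this step. A V segment count in bulk RNA therefore adds up many clones, and fewer cells using a segment and less RNA per cell cannot be told apart.

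The coding ends of some segments are given here to show how alike the most abundant V family is and how short the D and J segments are. The V sequences are the last 40 bases of the annotated transcript (GENCODE M21, GRCm38, 5′ to 3′), and capitals mark the cysteine codon TGT inside the motif TGTGCNAG, with which the third complementarity-determining region begins. They lie on the forward strand at chr6:41116429-41116468 (Trbv13-1), chr6:41121793-41121832 (Trbv13-2), chr6:41130546-41130585 (Trbv13-3) and chr6:41227954-41227993 (Trbv26), and on the reverse strand at chr6:41557691-41557730 (Trbv31), downstream of the constant genes.
Trbv13-1: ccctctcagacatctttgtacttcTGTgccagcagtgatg
Trbv13-2: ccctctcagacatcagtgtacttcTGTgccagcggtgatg
Trbv13-3: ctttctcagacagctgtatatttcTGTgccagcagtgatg
Trbv26: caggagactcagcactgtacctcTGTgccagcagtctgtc
Trbv31: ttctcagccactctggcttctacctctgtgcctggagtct
The motif was found in the last 40 bases of 17 of 22 V genes, 6 of 13 V pseudogenes and 0.306% of all 141767 transcripts searched on the sense strand, and Trbv31 was without it. Over the whole transcripts, Trbv13-2 was 90.6% identical to Trbv13-3 and 88.7% identical to Trbv13-1.

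For the D and J segments, whole sequences are given, and in the J segments capitals mark the J codon motif, a codon that begins with TT, a glycine codon, any codon and the first letters (GG) of another glycine codon, which closes the third complementarity-determining region.
Trbd1: gggacagggggc
Trbd2: gggactgggggggc
Trbj2-4: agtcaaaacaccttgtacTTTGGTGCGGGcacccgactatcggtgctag
Trbj2-7: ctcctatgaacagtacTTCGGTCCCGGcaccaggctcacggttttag
Trbd1 (chr6:41533201-41533212) and Trbd2 (chr6:41542163-41542176) are 12 and 14 bases long, and the 14 J segments span 46 to 54 bases, whereas V transcripts span 260 to 566 bases. Trbj2-4 lies at chr6:41543362-41543410 and Trbj2-7 at chr6:41543810-41543856, all on the forward strand. The J codon motif was present in 11 of 14 J segments.

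D and J segments were close to absent from the table. Trbd1 and Trbd2 were listed at 0 counts in every mouse, as were 12 of the 14 J segments. Trbj2-4 had 1 count and Trbj2-7 had 2 counts, all in TKO mouse 3, which had the deepest library. With 3 counts corresponding to between 0.0377 CPM (counts per 1e6 counts) in TKO mouse 3 and 0.176 CPM in TKO mouse 2, J use, the share of the Trbj1 cluster and D use could not be compared between genotypes.

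V segments carried almost all of the counts. Summed over the 35 V segments, a mouse had 14094 to 59671 counts, and V pseudogenes held 0.360 to 0.947% of them. Counts of 10 or more in every mouse were seen for 22 V segments, the V genes other than Trbv21 and the pseudogene Trbv24, and 4 pseudogenes (Trbv7, Trbv9, Trbv27 and Trbv28) were listed at 0 in every mouse. Only 21 members passed the filter on low counts in all 3 comparisons, and they were 20 V genes and Trbv24. Trbv30 passed in the comparisons with TKO mice, through the TKO mice in which it was high, and not in that of Zmat3-/- with wt mice, and Trbv21, with 8 to 21 counts a mouse, passed in none.

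Levels of different segments were compared as CPM per kilobase of transcript. Trbv13-2 had the highest level of all segments in each of the 11 mice. Its level was 155, 224, 236 and 225 CPM per kilobase in wt mice 1 to 4, 234, 236, 242 and 258 in Zmat3-/- mice 1 to 4, and 260, 260 and 253 in TKO mice 1 to 3. Wt mouse 1 was the lowest of all, and the ranges of wt and Zmat3-/- mice overlapped.

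Behind Trbv13-2, the order of segments was stable at both ends and unsettled in the middle. Trbv13-1 followed at 140 ± 17.6 CPM per kilobase (SD, n = 11 mice), 1.68 times lower than Trbv13-2. Trbv15, Trbv16 and Trbv3 came next with means of 123, 122 and 121, and Trbv15 was above Trbv16 in only 5 of 11 mice. From Trbv5 at 116 to Trbv2 at 70.6, the means of neighbours in the order differed by at most 1.15 times. Of these neighbours, Trbv12-2 was above Trbv1 in all 11 mice and Trbv4 above Trbv13-3 in 10, while the others changed places in 3 or more mice. Trbv26 (59.7 ± 8.54), Trbv17 (45.1 ± 5.57), Trbv20 (32.0 ± 4.91), Trbv23 (14.2 ± 2.12), Trbv30 (3.14 ± 0.839) and Trbv21 (1.15 ± 0.404) formed the low end, and each stood above the next one in every mouse.

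**Figure D1:**
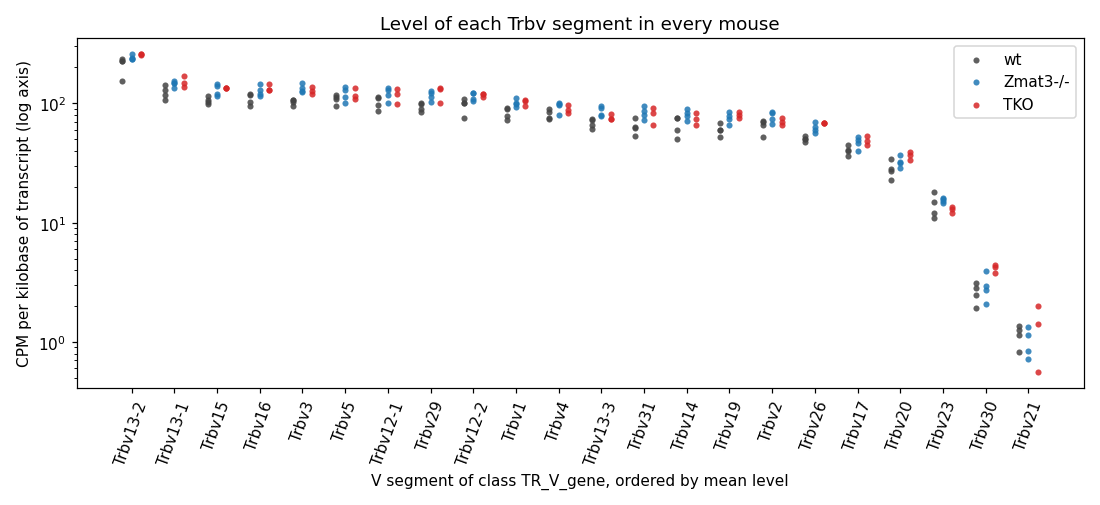
Level of each of the 22 V genes in CPM per kilobase of transcript (vertical log axis), 1 point per mouse, coloured by genotype. Trbv13-2 is highest in every mouse, the middle of the order forms a plateau, and the low end falls from Trbv26 to Trbv21.

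The most upstream segment, Trbv1 (chr6:40891229-40891885), had 94.8 ± 11.8 CPM per kilobase and the inverted Trbv31 had 75.3 ± 13.1 (SD, n = 11 mice each), with Trbv1 above Trbv31 in all 11 mice. Across the 19 tested V genes upstream of Trbd1, Spearman's rho of mean level with distance from Trbd1 was 0.38, a description over segments that share the same libraries. Among pseudogenes Trbv24 had the highest level, 9.46 ± 2.92 CPM per kilobase (SD, n = 11) with 42 to 249 counts a mouse, beside 14.2 ± 2.12 for its neighbour Trbv23. The other pseudogenes had at most 22 counts in any mouse.

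**Figure D2:**
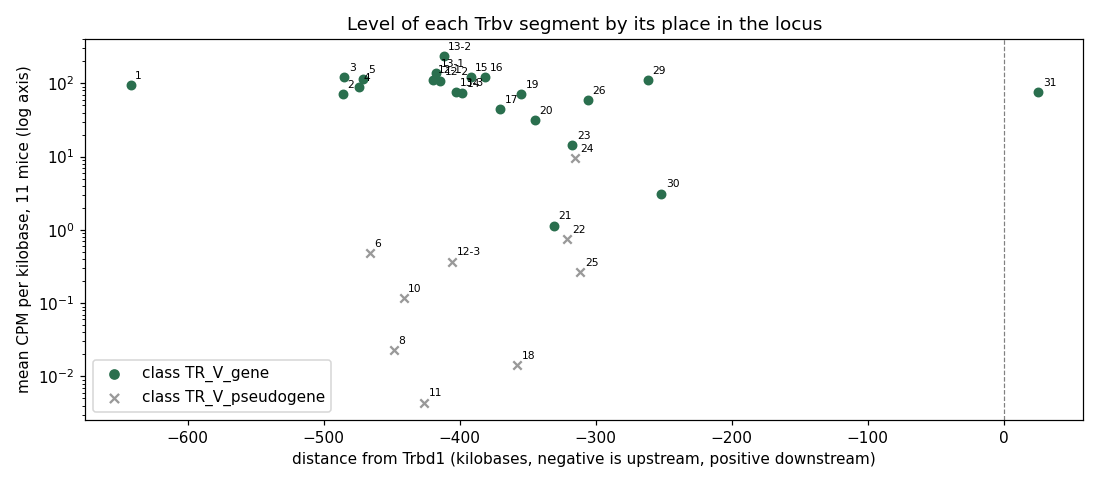
Mean level of each V segment with a count over 11 mice (CPM per kilobase, log axis) against its distance from Trbd1 in kilobases, with circles for V genes and crosses for V pseudogenes. Labels are segment numbers without Trbv; Trbv1 and Trbv31 at the ends of the locus have means of 94.8 and 75.3, and among pseudogenes Trbv24 is highest.

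Some V counts are uncertain because of shared sequence. The long non-coding RNA gene 5830405F06Rik overlaps Trbv4 and Trbv5, and it shares 73.6% of the 31-base words of Trbv4 and 78.7% of those of Trbv5, so that their reads could be split. It had 434 to 2231 counts a mouse. All 31-base words of the pseudogene Trbv8 also lie in another transcript. Within the Trbv13 family, Trbv13-2 and Trbv13-3 shared 10% of their words, and Trbv12-1 and Trbv12-2 shared 3.9%.

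Wt mice 1 and 2 differed from wt mice 3 and 4 in many genes, and this touches each comparison with wt mice. Zmat3 itself had 9.24, 11.8, 27.6 and 27.8 CPM in wt mice 1 to 4, 5.47 to 7.01 CPM in Zmat3-/- mice and 7.72 to 8.27 CPM in TKO mice. Every wt mouse was thus above all mutant mice, with wt mice 1 and 2 nearer to them. The log2 fold change of Zmat3 was -1.64 ± 0.35 (SE) in Zmat3-/- and -1.28 ± 0.39 in TKO against wt mice, with adjusted p of 0.0789 and 0.371, so that Zmat3 itself was not called. Bbc3 had 17.3 to 19.4 CPM in wt, 15.7 to 20.3 CPM in Zmat3-/- mice and 12.3 to 16.1 CPM in TKO mice. Cdkn1a ranged from 3.64 to 10 CPM across wt mice, lay between 4.94 and 9.01 CPM in Zmat3-/- mice and was 2.33 to 3.62 CPM in TKO mice, below all other mice. Rag1, the catalytic subunit of the recombinase, had 1500, 2161, 5437 and 5121 CPM in wt mice 1 to 4 and 4014 to 5768 CPM in the mutant mice. The summed level of 8 double-positive markers was 7837 and 8903 CPM in wt mice 1 and 2 and 9789 to 12538 CPM in the other mice. All 8 had counts in every mouse. Total counts ranged from 17669715 to 80207003 per mouse.

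The summed V level was higher in both mutant groups than in wt mice. It was 584, 715, 701 and 637 CPM in wt mice 1 to 4, with a mean of 659 ± 60.6 (SD, n = 4). In Zmat3-/- mice 1 to 4 it was 749, 728, 855 and 838 CPM, with a mean of 792 ± 63.4 (SD, n = 4). TKO mice 1 and 3 had 813 and 750 CPM and TKO mouse 2 lay between TKO mouse 1 and Zmat3-/- mouse 4, with a mean of 797 ± 41.6 (SD, n = 3). Each mutant mouse was above each wt mouse, while the ranges of Zmat3-/- and TKO mice overlapped.

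On the log2 scale the mean summed level was 0.28 higher in TKO than in wt mice and 0.27 higher in Zmat3-/- than in wt mice, against a pooled SD between mice of 0.12 and 0.13. TKO minus Zmat3-/- gave 0.01 with an SD of 0.10. The separation from wt mice depended on the library scaling. Without TMM factors, wt mice ranged from 599 to 756 CPM, Zmat3-/- mice from 704 to 782 and TKO mice from 744 to 807, so that both ranges overlapped that of wt mice. Without TMM factors the differences were 0.10 for Zmat3-/- and 0.18 for TKO mice, while the median gene moved from 0.03 to -0.13 for Zmat3-/- and from 0.03 to -0.07 for TKO mice. With RLE size factors, wt mice ranged from 631 to 730 CPM, Zmat3-/- mice from 716 to 840, which overlapped, and TKO mice from 739 to 824, which did not. The differences with RLE were 0.21 and 0.23. Without wt mice 1 and 2 the differences were 0.24 and 0.25.

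The constant genes behaved otherwise. Trbc1 and Trbc2 together had 4325 and 3794 CPM in wt mice 1 and 2, 2179 and 2088 CPM in wt mice 3 and 4, 2726 to 2859 CPM in Zmat3-/- mice and 2303 to 2908 CPM in TKO mice. Wt mice thus lay both above and below the mutant mice. Trac, the constant gene of the alpha chain, had 561 and 551 CPM in wt mice 1 and 2, 347 and 328 CPM in wt mice 3 and 4, and 334 to 404 CPM in mutant mice. The summed V level did not show this split, since wt mouse 2 was the highest and wt mouse 1 the lowest wt mouse. Trbv14 did, with 27.8 and 27.5 CPM in wt mice 1 and 2 and 22.1 and 18.5 CPM in wt mice 3 and 4.

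As a result, V counts per 100 Trbc counts were 13.5 and 18.8 in wt mice 1 and 2 and 32.2 and 30.5 in wt mice 3 and 4. Zmat3-/- mice had 26.2, 26.1, 30.95 and 30.8, and TKO mice had 29.0, 28.5 and 32.6. Wt mice 3 and 4 fell within the mutant range, and only wt mice 1 and 2 were below it. Neither Trbc1 nor Trbc2 differed between genotypes by edgeR's quasi-likelihood test, with log2 fold changes of -0.18 and -0.36 for TKO (adjusted p = 0.816 and 0.703) and of -0.09 and -0.31 for Zmat3-/- against wt mice (adjusted p = 0.863 and 0.616). The part of the wt split in these ratios was not tested.

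**Figure D3:**
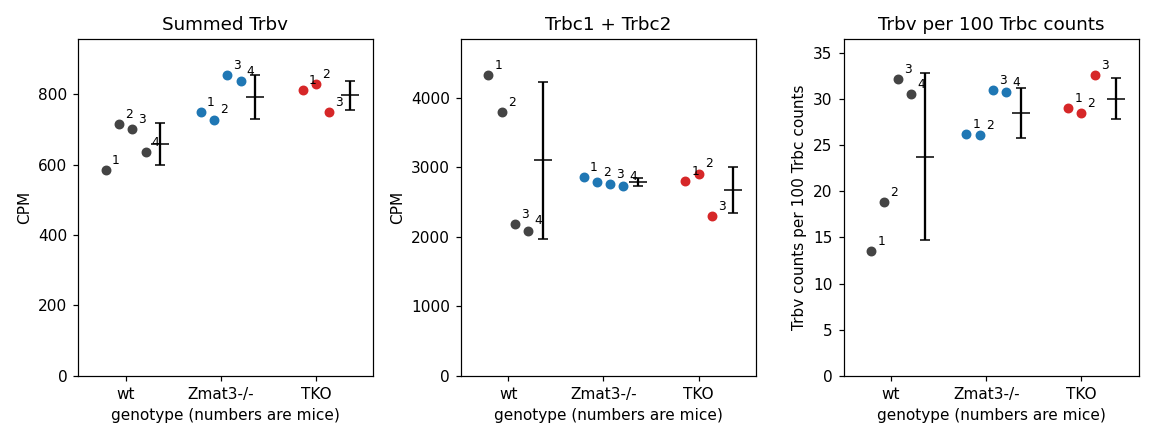
Summed Trbv level (left, CPM), summed Trbc1 and Trbc2 level (middle, CPM) and Trbv counts per 100 Trbc counts (right) in each mouse, with mouse numbers beside the points and the genotype mean ± SD as black bars. Wt mice 1 and 2 stand apart in the middle and right panels, at 4325 and 3794 CPM and at 13.5 and 18.8 counts.

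No single segment was called in any comparison by the study's thresholds of an adjusted p below 0.05 and an absolute log2 fold change above 1.5. In TKO against wt mice 0 of 22 tested members were called, where 0.241% of all 13275 tested genes were. For Zmat3-/- against wt mice the count was 0 of 21 (0.319% of 13480 genes), and for TKO against Zmat3-/- mice 0 of 22 (0.122% of 13132 genes). DESeq2 called 0 members in each comparison too. Among the 21 members tested in all comparisons, log2 fold changes ran from -0.28 to 0.38.

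Below those thresholds, V segments were mostly higher than in wt mice. A positive log2 fold change was found for 20 of 22 members in TKO against wt mice (45.7% of all genes) and for 21 of 21 in Zmat3-/- against wt mice (46.8%), but for only 12 of 22 in TKO against Zmat3-/- mice (47.3%). The counts for TKO mice include Trbv30, which was bound to be higher there, as the filter let it in through TKO mice. The median log2 fold change of the members was 0.23, 0.19 and 0.02, beside -0.04, -0.03 and -0.01 over all genes. Both comparisons with wt mice share the wt libraries, and the members share each library's scaling. At an unadjusted p below 0.05, 3 of 22 members were higher in TKO mice (4.16% of all genes), 5 of 21 were higher in Zmat3-/- mice (7.2%), and 0 of 22 differed in either direction between the mutants (4.5%). In DESeq2 5, 7 and 0 members were below that unadjusted p, beside 13.2, 19.6 and 4.68% of all genes. Its adjusted p was below 0.05 for 1 of 22 members in TKO against wt mice (2.88% of all genes) and 1 of 21 in Zmat3-/- against wt mice (8.03%). Blocking on replicate number, which pairs the mice in Zmat3-/- against wt, left 1 of 21 members below the unadjusted p there, beside 15.3% of all genes.

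Counting segments whose ranges of CPM did not overlap gave 11 of 22 higher in all TKO mice than in all wt mice (7.88% of all genes) and 5 of 21 higher in all Zmat3-/- mice (9.15%). These counts fell with other scalings. With RLE size factors they were 9 (6.72%) and 3 (7.04%), and without TMM factors 6 (4.13%) and 1 (2.7%). The 11 in TKO mice include Trbv30, which was bound to be higher there, as the filter let it in through TKO mice. They also include Trbv13-3, with 25.18 CPM in the lowest TKO mouse and 25.17 CPM in the highest wt mouse. Between TKO and Zmat3-/- mice 1 of 22, Trbv23, did not overlap and was lower in TKO mice (2.84%).

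In TKO against wt mice, Trbv26 had the smallest p of the members. It had 17.3, 19.7, 18.5 and 18.4 CPM in wt mice 1 to 4, 20.7, 22.1, 23.4 and 25.5 CPM in Zmat3-/- mice 1 to 4, and 25.2, 25.4 and 24.9 CPM in TKO mice 1 to 3. All mutant mice were above all wt mice. The log2 fold change was 0.38 ± 0.12 (SE) for TKO against wt mice, with an adjusted p of 0.368, and 0.26 ± 0.10 for Zmat3-/- against wt mice, with an adjusted p of 0.279. DESeq2 gave 0.40 for TKO against wt mice with an adjusted p of 0.0136, and over its alternatives the adjusted p ran from 0.0136 to 0.855.

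Trbv3 had the smallest p in Zmat3-/- against wt mice. Its level was 42.9, 48.4, 48.2 and 47.1 CPM in wt mice 1 to 4, 56.7, 58.0, 67.4 and 61.7 CPM in Zmat3-/- mice 1 to 4, and 61.8, 58.2 and 54.4 CPM in TKO mice 1 to 3. No mutant mouse overlapped the wt range. The log2 fold change was 0.33 ± 0.09 (SE) in Zmat3-/- mice, with an adjusted p of 0.126, and 0.26 ± 0.11 in TKO mice, with an adjusted p of 0.486. In Zmat3-/- mice DESeq2 gave 0.33 with an adjusted p of 0.00557, and over its alternatives the adjusted p ran from 0.00264 to 0.530.

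Trbv19, Trbv15, Trbv29 and Trbv13-3 completed the segments with the smallest p against wt mice. Trbv19 had 29.6, 38.8, 33.9 and 33.9 CPM in wt mice 1 to 4 and 45.3, 47.6 and 42.9 CPM in TKO mice 1 to 3, which did not overlap. Trbv15 was nearly equal in the 3 TKO mice, at 49.6, 49.7 and 49.7 CPM, beside 36.6 to 42.9 CPM in wt mice. For Trbv29, TKO mouse 3 had 35.4 CPM and fell inside the wt range of 29.6 to 35.6 CPM, whereas TKO mice 1 and 2 had 47.9 and 46.4 CPM. Trbv13-3 had 26.8 to 32.1 CPM in Zmat3-/- mice, 20.6 to 25.2 CPM in wt mice and 25.2 to 27.9 CPM in TKO mice. The log2 fold changes of Trbv19 and Trbv15 in TKO mice were 0.35 ± 0.13 and 0.27 ± 0.11 (SE), and their adjusted p were 0.427 and 0.465.

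At the low end, Trbv30 had few counts and entered the comparison through the TKO mice, so its difference is given as a description. It had 37, 35, 15 and 24 counts in wt mice 1 to 4, 37, 21, 29 and 31 in Zmat3-/- mice 1 to 4, and 57, 24 and 100 in TKO mice 1 to 3. Scaled to library size, these were 0.642 to 1.05 CPM in wt mice and 1.26 to 1.47 CPM in TKO mice, which did not overlap. The log2 fold change in TKO against wt mice was 0.59 ± 0.32 (SE). The pseudogene Trbv6, which was not tested, had 0 to 3 counts in wt mice, 2 or 3 in Zmat3-/- mice and 12, 6 and 14 in TKO mice 1 to 3. Trbv23 went the other way, with 4.19 to 4.70 CPM in TKO mice, below the 5.07 to 5.62 CPM of Zmat3-/- mice and inside the wt range of 3.79 to 6.22 CPM, and its log2 fold change was -0.28 ± 0.16 (SE) in TKO against Zmat3-/- mice with an adjusted p of 0.983.

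Trbv1 had 30.1 to 37.9 CPM in wt, 38.9 to 46.6 CPM in Zmat3-/- mice, and 39.98 to 44.6 CPM in TKO mice, and no mutant mouse overlapped the wt mice. Trbv31 had 21.97 to 31.6 CPM in wt mice, 30.2 to 39.3 in Zmat3-/- mice and 27.6 to 38.1 CPM in TKO mice, and these ranges overlapped. The log2 fold changes of Trbv1 and Trbv31 against wt mice were 0.23 and 0.32 in Zmat3-/- and 0.24 and 0.27 in TKO mice, with adjusted p between 0.320 and 0.623.

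**Figure D4:**
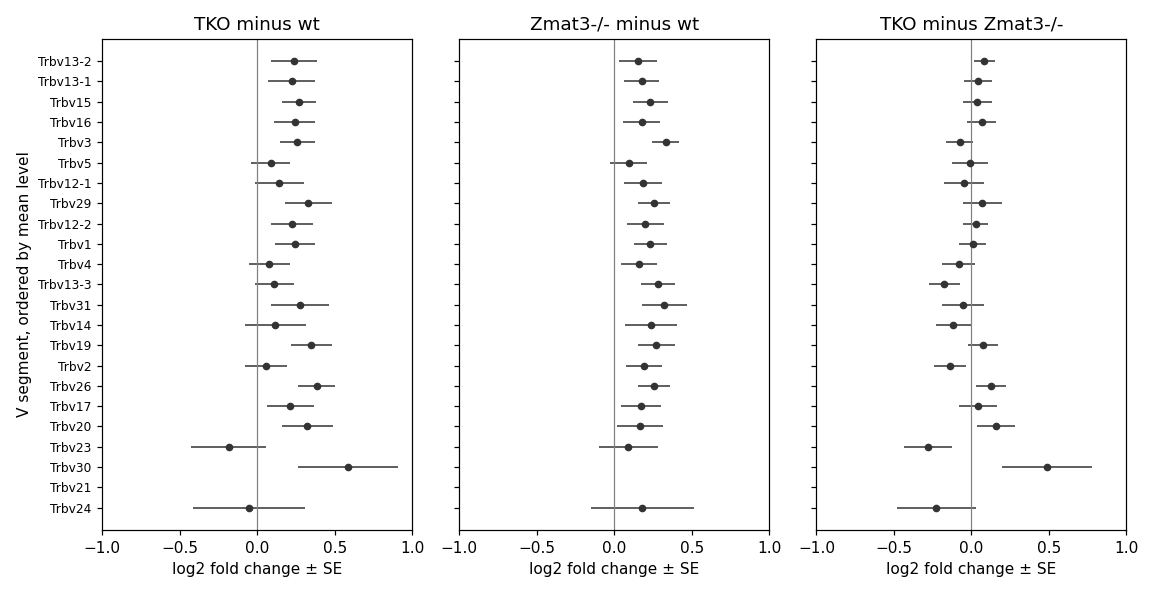
Log2 fold change ± SE of each tested V segment in the 3 comparisons, from edgeR, with V genes ordered by mean level and the pseudogene Trbv24 last. Points lie mostly right of 0 against wt mice (20 of 22 and 21 of 21) and on both sides of 0 between the mutants (12 of 22 above 0); Trbv21 was tested in none and Trbv30 not in Zmat3-/- against wt mice.

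Against wt mice 3 and 4 alone, a larger part of the table differed. With wt mice 1 and 2 left out, 6 of 22 members had an adjusted p below 0.05 in Zmat3-/- mice, where 33.0% of all genes did, and 0 of 22 in TKO mice, where 8.14% did. The 6 segments, Trbv3, Trbv13-1, Trbv13-3, Trbv14, Trbv19 and Trbv31, were all higher in Zmat3-/- mice. Adding 1 surrogate variable to the model, 8 of 21 members passed in Zmat3-/- mice (38.0% of all genes) and 3 of 22 in TKO mice (14.4%). These 8 and 3 members were all higher than in wt mice. None of the members that passed had an absolute log2 fold change above 1.5. The percentages of all genes given here count both directions. The share of genes that were higher was not computed, so the V segments cannot be set against it.

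The shares of V segments differed by a few percent of all V counts between any pair of mice. As a share of all V counts, Trbv13-2 took 9.06, 10.7, 11.5 and 12.0% in wt mice 1 to 4, 10.6, 11, 9.62 and 10.4% in Zmat3-/- mice 1 to 4, and 10.9, 10.7 and 11.5% in TKO mice 1 to 3. The 95% Wilson interval was 8.67 to 9.46% in wt mouse 1 and 11.5 to 12.6% in wt mouse 4, so these wt mice differed by more than counting error, which is all that the interval covers. No segment passed 15% of the V counts in a mouse. The percentage of V counts that would have to move between segments to turn the shares of one mouse into those of another was 2.71 to 6.50% for the 15 pairs of the same genotype and 2.49 to 5.72% for the 40 pairs of different genotypes, with medians of 3.68 and 4.07%. The largest values within a genotype, 6.50 and 5.93%, were pairs of wt mouse 1 with wt mice 4 and 3. Pairs of Zmat3-/- mice gave 2.71 to 3.82%, pairs of TKO mice 3.68 to 4.42% and pairs of a TKO with a Zmat3-/- mouse 3.25 to 5.16%.

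Evenness was given as the inverse Simpson index, the number of equally used segments with the same concentration. It was 17.4, 17.0, 16.7 and 16.4 in wt mice 1 to 4, 16.9, 16.9, 17.2 and 17.2 in Zmat3-/- mice 1 to 4, and 16.9, 16.8 and 16.7 in TKO mice 1 to 3. The means were 16.9 ± 0.427 (SD, n = 4), 17.0 ± 0.171 (SD, n = 4) and 16.8 ± 0.0923 (SD, n = 3). Wt mice spanned the values of all mutant mice, and wt mice 1 and 2 were above wt mice 3 and 4. TKO minus wt came to -0.10 and Zmat3-/- minus wt to 0.14, under the pooled SDs of 0.336 and 0.325. TKO minus Zmat3-/- came to -0.23 against a smaller pooled SD of 0.145, was negative under all alternatives run, and had ranges that overlapped by TKO mouse 1 alone. Without wt mice 1 and 2, TKO minus wt was 0.22 and Zmat3-/- minus wt 0.45.

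Shares varied less than levels. Over the 21 segments tested in all comparisons, the coefficient of variation over the 11 mice had a median of 12.9% for CPM and of 6.77% for the share of V counts. Shares of 16 of the 21 varied by more than 2 times the counting error at the mean count, and Trbv1 was the steadiest at 2.55%. The share of Trbv14 varied by 15.4%, with 4.76, 3.85, 3.16 and 2.90% in wt mice 1 to 4 and 2.92 to 4.20% in mutant mice, and that of Trbv24 varied most, by 28.5% (0.298 to 0.733%). When the library size was set to the summed V counts, none of the 5 segments with the smallest p in each comparison had an unadjusted p below 0.05 by edgeR, and the lowest was 0.122.

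**Figure D5:**
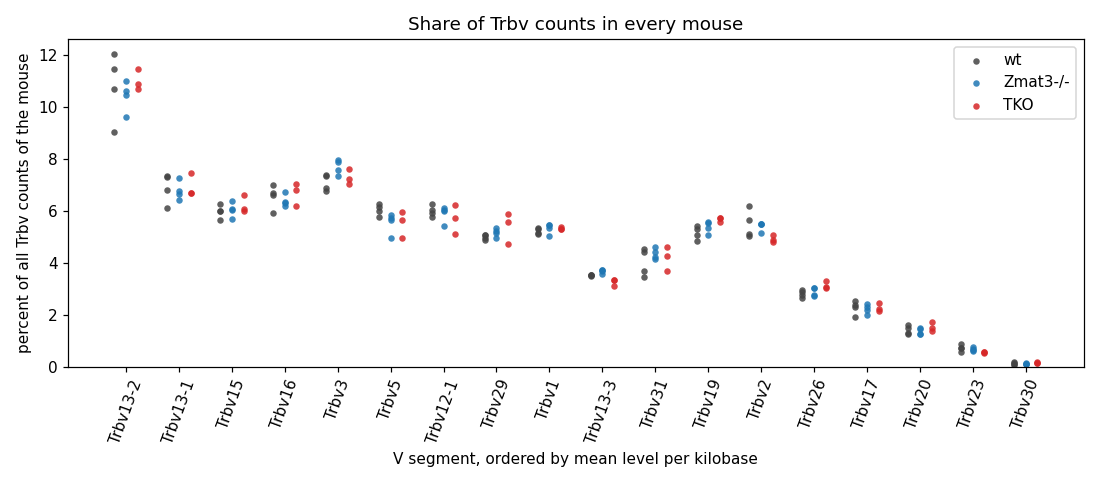
Share of all V counts (percent, axis from 0) taken by each of the V genes given by name, 1 point per mouse, coloured by genotype. Trbv13-2 takes 9.06 to 12.0% and the genotypes overlap for most segments, with Trbv13-3 lowest in the 3 TKO mice.

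Among the tested segments, a few shares did not overlap between genotypes, by less than 1 percentage point. Trbv13-3 took 3.11 to 3.36% in TKO mice, 3.51 to 3.54% in wt mice and 3.58 to 3.75% in Zmat3-/- mice, with all 3 genotypes apart. The Wilson interval of 3.28 to 3.78% in wt mouse 1 covered the range of the Zmat3-/- mice. In TKO mice Trbv26 took 3.06 to 3.32% beside 2.64 to 2.96% in wt mice, Trbv19 took 5.57 to 5.75% beside 4.83 to 5.43%, and Trbv23 took 0.554 to 0.568% beside 0.595 to 0.870%. Between the mutants, Trbv2, Trbv13-3 and Trbv23 were lower and Trbv19, Trbv26 and Trbv30 higher in all TKO mice. In the edgeR fits scaled to the summed V counts, the segments of these that were among the 5 with the smallest p of a comparison had unadjusted p of 0.122 to 0.542. For the others the results of these fits were not kept.

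Of the 14 genes of V(D)J recombination, none was called in any comparison by edgeR. At an unadjusted p below 0.05, 1 was lower in TKO against wt mice (6.16% of all genes), 1 was lower in Zmat3-/- against wt mice (8.93%) and 1 was higher there (7.2%). Paxx, an end-joining factor, had 52.0, 44.7, 29.9 and 32.7 CPM in wt mice 1 to 4 and 26.7 to 29.9 CPM in TKO mice, with a log2 fold change of -0.57 ± 0.24 (SE) and an adjusted p of 0.468. In Zmat3-/- against wt mice, Xrcc5, which codes for the Ku80 end-binding protein, was higher at an unadjusted p below 0.05, and Rag2, the partner of Rag1, was lower. Rag2 had 175, 226, 227 and 216 CPM in wt mice 1 to 4, 146 to 187 CPM in Zmat3-/- mice and 164 to 192 CPM in TKO mice, with a log2 fold change of -0.39 ± 0.12 (SE) and an adjusted p of 0.172 for Zmat3-/- against wt mice. Dntt, which adds nucleotides at the joints, had 1419 to 1845 CPM in wt and 1609 to 1732 CPM in mutant mice. Of the 13 regulators of the locus, including Runx1, Gata3 and Tcf3, 0 were called and 0 had an unadjusted p below 0.05 in any comparison by edgeR. Over all genes, 4.16% were higher and 6.16% lower at that p in TKO against wt mice. In Zmat3-/- against wt mice these shares were 7.2 and 8.93%, and 4.5% differed between the mutants.

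Of 12 receptor partner genes, for constant regions, pre-TCR alpha and CD3 chains, none was called. Those lower at an unadjusted p below 0.05 were 5 in TKO and 4 in Zmat3-/- against wt mice, where 6.16 and 8.93% of all genes were lower, and none was higher. The 5 were Trdc, Tcrg-C1, Tcrg-C2 and Tcrg-C4, the delta and gamma constant genes, and Cd3e, and the 4 were these without Tcrg-C4. Trbc1, Trbc2, Trac, Ptcra, Cd3d, Cd3g and Cd247 were not among them. The summed level of the 12 genes was 7398 and 6638 CPM in wt mice 1 and 2, 4309 and 4110 CPM in wt mice 3 and 4 and 4491 to 4959 CPM in the mutant mice, so that wt mice lay on both sides of all mutant mice. Cd3e had a log2 fold change of -0.47 ± 0.11 (SE) in Zmat3-/- mice with an adjusted p of 0.0970. The gamma and delta constant genes also mark gamma-delta T cells. The summed level of the 6 gamma-delta markers was 240, 217, 171 and 161 CPM in wt mice 1 to 4, 116 to 170 CPM in Zmat3-/- mice and 125 to 153 CPM in TKO mice, so that every TKO mouse was below every wt mouse. Summed single-positive markers, 8 genes of mature thymocytes, were 620 to 672 CPM in wt mice, 557 to 623 CPM in Zmat3-/- mice and 565 to 627 CPM in TKO mice. Their members differed in direction in Zmat3-/- against wt mice. At an unadjusted p below 0.05, 4 of 8 were lower (8.93% of all genes) and 1 was higher (7.2%). Ms4a4b, a membrane protein gene of mature T cells, was 79.7 to 91.8 CPM in wt mice, 58.5 to 67.6 CPM in Zmat3-/- mice and 59.9 to 71.4 CPM in TKO mice, with a log2 fold change of -0.49 ± 0.08 (SE) and an adjusted p of 0.0341 for Zmat3-/- against wt mice. Cd69, an activation marker, was 49.8 to 60.2 CPM in wt mice and 68.3 to 84.8 CPM in mutant mice, and its log2 fold change in Zmat3-/- mice was 0.40 ± 0.10 (SE) with an adjusted p of 0.121. All 6 gamma-delta markers and all 8 single-positive markers had counts in every mouse, and their part in the V segment levels was not tested.

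Of 13 listed genes in or beside the locus, 12 were found among the counted genes, 3 passed the filter, and none was called. Trpv6, a calcium channel gene, had 2.79, 2.90, 5.26 and 5.74 CPM in wt mice 1 to 4, 5.27 to 8.07 CPM in Zmat3-/- mice and 5.53 to 6.41 CPM in TKO mice, and its log2 fold change in Zmat3-/- against wt mice was 0.66 ± 0.28 (SE) with an adjusted p of 0.286. The trypsinogen genes that lie between V segments had at most 2.54 CPM, for Prss2, the pancreatic trypsinogen gene with the highest level here. Ephb6, an ephrin receptor gene beside the locus that thymocytes express, had 137, 178, 216 and 213 CPM in wt mice 1 to 4, 217 to 247 CPM in Zmat3-/- mice and 189 to 243 CPM in TKO mice, and its log2 fold changes against wt mice were 0.25 ± 0.14 (SE) and 0.21 ± 0.18, with an adjusted p of 0.406 and 0.664. Among 12960 genes compared over the 11 mice, the 5 with the log2 CPM most like that of Trbv13-2 were Gm48838 (Pearson's r 0.97), Mknk1 (0.97), Gm44226 (0.96), Trbv12-2 (0.96) and Gm17825 (0.95).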

How the data were processed

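Thymocyte RNA (100 ng) was sequenced in 2 × 116 cycles. Per the study's methods, the authors quantified reads with Salmon in nf-core/rnaseq against GRCm38.p6, annotated with GENCODE vM25, and deposited estimated counts per gene, 1 column per mouse, as whole numbers without normalization. Salmon divides reads between transcripts with shared sequence, which bears on Trbv4, Trbv5 and the Trbv13 family, and how reads across V(D)J joints were assigned is not given in the sources used here. Names, classes, lengths and sequences were taken from GENCODE M21 (GRCm38), and 54166 of 54418 genes matched. Of these, 1628 genes of the classes the study left out were dropped before the fit. The members and lists were chosen with earlier results of these data known.

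CPM used TMM factors over all 11 mice. Each pair of genotypes was fitted on its own by the quasi-likelihood F-test of edgeR 4.0.16 (with limma 3.58.1 in R 4.3.3) over all genes that passed a minimum of 20 counts scaled to the smallest library, two-sided, with Benjamini-Hochberg adjustment. SEs were derived from F, as the size of the log2FC over the root of F. The study used DESeq2 with sex and surrogate variables, tried here with DESeq2 1.42.0 and sva 3.50.0, and the Xist level stood in for the sex. Sums, shares and evenness (the inverse Simpson index) were described without a test, with 1 exception. Each comparison was also fitted with the library size set to the summed V counts, and results were kept for the 5 segments with the smallest p. Intervals of shares (95%, Wilson) cover counting error only. Alternatives were other scalings, filters, covariates and left-out mice. The D and J comparisons were not made, and all columns of the table were used. Tested on simulated data in which 200 genes had a log2FC of 3, the fit recovered 98.5% (TKO against wt, 13275 genes), 100% (Zmat3-/- against wt, 13480) and 100% (TKO against Zmat3-/-, 13132). Of its calls, 1.5, 0.498 and 0% were false. The members had far smaller log2 fold changes, so this recovery does not tell how well changes of their size would be found.

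The labels give replicate numbers. Deviations from the genotype means of same-numbered wt and Zmat3-/- mice correlated at 0.127 to 0.339 in all 4 pairs. The main fits of Zmat3-/- against wt mice did not use this pairing, which entered only as the replicate block among the alternatives. With the block, Trbv3 had an adjusted p of 0.269 by edgeR in that comparison, beside 0.126 without it. In the comparisons with TKO mice a pair was at 0.073 or 0.0116, and the block was run there as an alternative too.

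Segments were named by rule: the 8 V genes with the highest CPM per kilobase, the 3 lowest tested in all comparisons, Trbv1, Trbv31, the 5 with the smallest p in each comparison, those with ranges apart and an absolute log2FC above 0.5, any above 15% of V counts, and the D and highest J segments. Trbv4, Trbv12-2, Trbv14, Trbv21, Trbv24, other pseudogenes, Ms4a4b and Cd69 were added after their values were seen.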

Additional observations from a re-analysis of the deposited data

Results flagged for a closer look

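Among 86 checks of the segments given by name and of sums in groups of 4 mice, 2 found a mouse far from the other 3, at a gap to the nearest mouse above 0.829 of the group's range. About 1 in 20 such groups shows such a gap by chance, and groups of 3 (TKO) were not checked. Trbv13-2 had 52.8 CPM in wt mouse 1, beside 76.3 to 80.3 CPM in the other wt mice. Trbv2 took 5.15% of V counts in Zmat3-/- mouse 2, beside 5.49 to 5.51% in the other Zmat3-/- mice, and 5.15% lay inside the wt range of 5.02 to 6.19%.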

How the results depend on the processing

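No member was called under any alternative run: DESeq2, RLE size factors, other filters on low counts, all genotypes in one fit, the replicate block, the Xist level, 1 surrogate variable, any fold change allowed, each mouse left out, and, chosen after seeing the data, wt mice 1 and 2 left out. A call needs an absolute log2 fold change above 1.5, while the 5 segments with the smallest p in each comparison reached at most 0.667. At any fold change, DESeq2 gave 1 member with an adjusted p below 0.05 in TKO against wt mice and 1 in Zmat3-/- against wt mice, beside 2.88 and 8.03% of all genes. With 1 surrogate variable these were 3 of 22 (14.4%) and 8 of 21 (38.0%). With wt mice 1 and 2 left out they were 0 of 22 (8.14%) and 6 of 22 (33.0%). The log2 fold change of the 5 segments with the smallest p in each comparison kept its direction under all alternatives run. With the library size set to the summed V counts, all 10 against wt mice shrank by over 1.5 times, among them Trbv26 (0.38 to 0.17), Trbv15 (0.27 to 0.06) and Trbv3 (0.26 to 0.04) in TKO and Trbv3 (0.33 to 0.12) in Zmat3-/- mice. The summed V level moved by more than the spread between mice in CPM in 2 alternatives: TKO minus wt per Trbc count (0.42, with an SD between mice of 0.467 on that scale) and Zmat3-/- minus wt without TMM factors (0.10). Leaving out single mice gave 0.22 to 0.32 and 0.21 to 0.31 for these differences and -0.03 to 0.05 between the mutants. With the replicate block (mean over pairs) they were 0.26, 0.27 and 0.04, and the block changed no call. Leaving out Trbv4 and Trbv5, also chosen after seeing the data, gave 0.29, 0.28 and 0.02. The evenness difference changed sign without wt mouse 1 for TKO minus wt (0.08) and without wt mouse 4 for Zmat3-/- minus wt (-0.02), each below 1 SD. Without wt mice 1 and 2 they were 0.22 and 0.45, the latter above its SD of 0.325. Alternatives for the J level and the Trbj1 share gave no value, since J segments were at or near 0. Whether single segments passed adjustment at any fold change depended on the test: Trbv26 in TKO against wt mice had an adjusted p of 0.368 by edgeR, 0.0136 by DESeq2 and 0.0216 with 1 surrogate variable, and Trbv3 in Zmat3-/- against wt mice had 0.126, 0.00557 and 0.00264. The cause was not tested.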
